A study of Mus musculus with 6 samples.

Results

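The immediate-early and stress response genes of mouse bladder mucosa were described in 6 single-cell RNA sequencing libraries. The list held 39 genes, chosen by name and matched to the tables by Ensembl ID, and 37 of them were listed in all 6 tables, out of 14338 genes compared in the whole series. Egr3 and Cebpd were the exceptions and are described apart from the rest. All mice were wild-type C57BL/6 of 8 weeks, and each group held both sexes. The healthy group (2 libraries) received nothing, the acute injury group (2 libraries) received 1 injection of cyclophosphamide (CPP, a drug whose breakdown product acrolein injures the urothelium from the urine) at 150 mg/kg and was collected 48 h later, and the chronic injury group (2 libraries) received 4 injections at 75 mg/kg and was collected 48 h after the last. The study used more mice than libraries in each condition and the labels do not give the mice behind each library, so every error and p-value here measures the spread between these libraries, which may in part be technical. The mucosal layer was peeled and digested with collagenase IV and DNase I in every group.

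Immediate-early genes are transcribed within minutes of a growth factor, cytokine, mechanical or stress signal, without the need for new protein synthesis, because the factors that switch them on (serum response factor with its ternary complex partners, CREB, NF-kB) already wait in the cell. Their products are mostly transcription factors (the AP-1, EGR, NR4A and KLF families), followed by feedback genes that end the signal: dual-specificity phosphatases that switch off MAP kinases, the mRNA decay factors of the Zfp36 family, and the inhibitors Nfkbia and Socs3. Enzymatic dissociation of tissue is itself known to switch on these genes. No undigested tissue was measured here, so transcript that was in the tissue and transcript made during the digestion cannot be told apart in any value below.

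Candidate control elements of these genes can be looked for by their letters in the bases just before transcription starts. RefSeq windows of 250 bases before the start (GRCm38.p6) were found for 32 of the 39 genes, and none was found for Ier2, Myc, Nfkbiz, Cebpd, Egr3, Egr1 and Fosl1. The cAMP response element (CRE) TGACGTCA, a site of CREB and ATF proteins, was found on either strand, in at least 1 window, in 9.38% of the 32 genes (Btg2, Dusp1 and Maff) and in 1.77% of the 27025 genes with a window. Its short form TGACG, which also lies inside every CRE, was found in 53.1% of the 32 and in 19.8% of all. The CArG box, the site of serum response factor, was found in 9.38% (Dusp5, Egr2 and Zfp36) and in 1.62% of all. NF-kB sites were found in 21.9% against 8.23%, and the AP-1 site TGANTCA in 6.25% against 7.82%. These are matches of letters, not measured binding. Shown first are 4 genes with the CRE or its short form: Fos at chr12:85473640-85473889 (+ strand), Nr4a1 at chr15:101266596-101266845 (+ strand), Dusp1 at chr17:26508473-26508722 (- strand) and Btg2 at chr1:134079156-134079405 (- strand). Then follow the 3 with a CArG box: Dusp5 at chr19:53528895-53529144 (+ strand), Egr2 at chr10:67537619-67537868 (+ strand) and Zfp36 at chr7:28379229-28379478 (- strand). Each is written 5′ to 3′ on the strand of the gene, with CRE, TGACG (or CGTCA, the same on the other strand) and CArG boxes in capitals.
Fos: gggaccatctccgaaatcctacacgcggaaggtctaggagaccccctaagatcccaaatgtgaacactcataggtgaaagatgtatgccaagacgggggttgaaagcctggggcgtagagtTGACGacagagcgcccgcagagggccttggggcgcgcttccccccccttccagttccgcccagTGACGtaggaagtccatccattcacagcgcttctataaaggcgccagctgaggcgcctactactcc
Nr4a1: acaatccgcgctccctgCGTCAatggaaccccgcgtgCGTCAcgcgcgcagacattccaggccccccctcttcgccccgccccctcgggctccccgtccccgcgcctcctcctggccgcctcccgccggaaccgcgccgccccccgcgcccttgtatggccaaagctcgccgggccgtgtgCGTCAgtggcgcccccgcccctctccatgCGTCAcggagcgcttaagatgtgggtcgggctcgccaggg
Dusp1: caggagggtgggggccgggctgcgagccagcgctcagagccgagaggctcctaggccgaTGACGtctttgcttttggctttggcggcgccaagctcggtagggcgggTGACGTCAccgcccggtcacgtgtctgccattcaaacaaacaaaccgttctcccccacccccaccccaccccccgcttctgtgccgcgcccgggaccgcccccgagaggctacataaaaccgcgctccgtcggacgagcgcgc
Btg2: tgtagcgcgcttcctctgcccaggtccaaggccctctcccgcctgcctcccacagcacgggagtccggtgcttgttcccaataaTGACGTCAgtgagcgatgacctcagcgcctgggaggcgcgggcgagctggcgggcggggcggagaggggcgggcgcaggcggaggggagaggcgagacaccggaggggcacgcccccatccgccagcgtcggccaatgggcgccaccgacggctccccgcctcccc
Dusp5: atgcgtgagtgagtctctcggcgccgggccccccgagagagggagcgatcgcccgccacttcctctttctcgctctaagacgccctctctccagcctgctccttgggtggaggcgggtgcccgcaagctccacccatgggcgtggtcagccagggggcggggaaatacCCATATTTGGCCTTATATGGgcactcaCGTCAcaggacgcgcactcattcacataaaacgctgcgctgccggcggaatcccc
Egr2: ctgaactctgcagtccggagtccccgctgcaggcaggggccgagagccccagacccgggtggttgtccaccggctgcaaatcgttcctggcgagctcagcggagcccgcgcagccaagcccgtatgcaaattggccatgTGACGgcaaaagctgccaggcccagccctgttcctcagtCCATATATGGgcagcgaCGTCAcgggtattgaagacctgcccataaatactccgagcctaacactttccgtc
Zfp36: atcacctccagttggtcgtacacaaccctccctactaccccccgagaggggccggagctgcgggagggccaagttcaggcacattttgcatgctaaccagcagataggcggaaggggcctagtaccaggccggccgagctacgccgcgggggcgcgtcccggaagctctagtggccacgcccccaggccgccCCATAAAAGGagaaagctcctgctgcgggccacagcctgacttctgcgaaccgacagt
In Dusp1 the CRE lay 143 to 136 bases before the start and in Btg2 166 to 159 bases before it. Nr4a1 held TGACG 4 times and no full CRE. Dusp5 held 2 CArG boxes end to end, 82 to 73 and 72 to 63 bases before the start. Egr2 is shown by 1 of its 5 windows, of which 4 held a CArG box. The box shown, CCATATATGG, lay at a distance that depends on the start chosen, and 1 of the 4 windows held another box, CCTTTTTTGG, in its place.

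Of the 55398 cells that passed the filters, 50128 were kept after called doublets and a cluster rich in them were taken out. Cells were sorted into classes by clustering without these genes and were named from marker genes: 8188 basal, 24108 intermediate and 3322 superficial urothelial cells, 5083 fibroblasts, 4630 myofibroblasts, 506 endothelial cells, 427 macrophages and 437 antigen-presenting cells without C1q were the classes used most. UMIs were summed per library and class, and levels are given as CPM, the UMIs of a gene per 1000000 UMIs of the sum, scaled between libraries with TMM. The libraries held between 54604109 and 111985678 UMIs. Pairs of libraries shared 36 to 229 cell barcodes, 0.673% to 2.28% of the smaller library. Acute replicate 2 stood apart in the stroma: it was the lowest of the 6 libraries for 28 of 37 genes in fibroblasts, where the same library was the lowest for 14.95% of all genes, and for 28 of 37 in myofibroblasts (15.9% of all genes). Chronic replicate 2 held only 58 fibroblasts.

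The same genes stood at very different levels in the different cells of the bladder mucosa. The mean of log2(CPM + 1) over the 37 genes was highest in macrophages, 8.65 ± 0.26 (SD, n = 6 libraries), and in myofibroblasts, 8.62 ± 0.56 (n = 6). It was 8.46 ± 0.038 in antigen-presenting cells without C1q (n = 5), 8.39 ± 0.44 in endothelial cells (n = 5) and 8.36 ± 0.64 in fibroblasts (n = 6). The step between neighbours in that order was smaller than the larger SD of each pair. The urothelial layers lay lower and apart from each other: 8.02 ± 0.094 in basal, 7.48 ± 0.16 in intermediate and 6.86 ± 0.26 in superficial cells (n = 6 each). Mean levels of acute replicate 2 were 7.23 in fibroblasts and 7.69 in myofibroblasts, against 8.02 to 8.996 and 8.29 to 9.15 in the other 5 libraries.

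**Figure D1:**
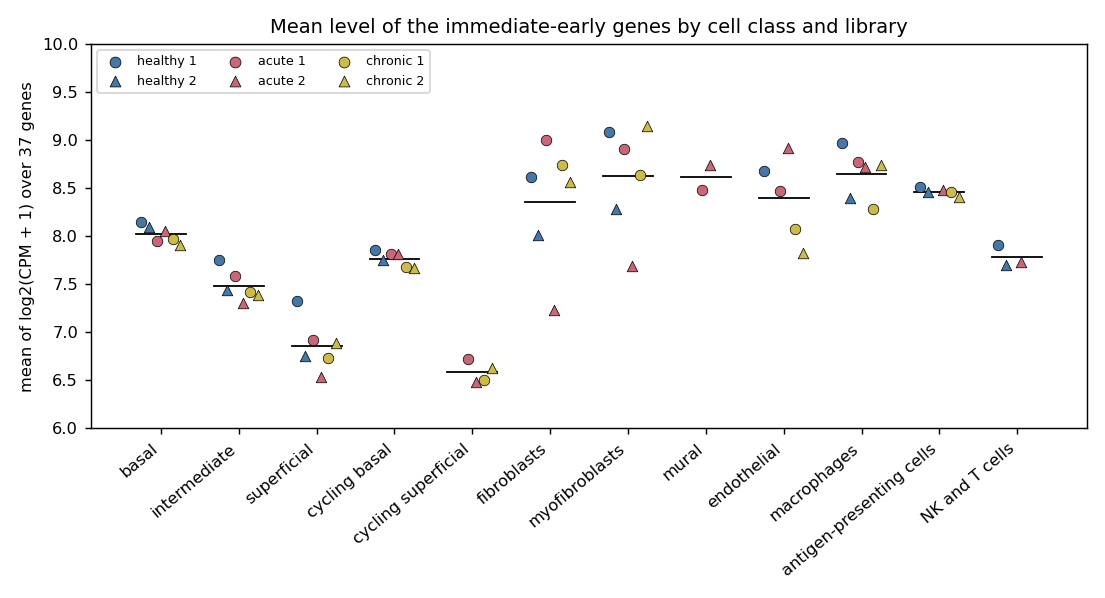
Mean of log2(CPM + 1) over 37 immediate-early genes (y axis) by cell class (x axis), with 1 point per library (colour for the group, shape for the replicate) and a line at the mean over libraries. Superficial cells had the lowest mean of the 3 non-cycling urothelial layers, at 6.86, and acute replicate 2 was the lowest library in fibroblasts (7.23) and myofibroblasts (7.69).

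Fos, the DNA-binding AP-1 subunit that pairs with Jun proteins, had the highest mean CPM of the 37 genes in all 3 urothelial layers, in both stromal classes and in macrophages, from 1048 CPM in superficial cells to 4896 CPM in fibroblasts. In fibroblasts it was followed by Junb (2881 CPM) and Dusp1, a MAP kinase phosphatase (2195 CPM). Jund, the AP-1 subunit that many resting cells keep, led in endothelial cells at 2572 CPM, and Nfkbia, which holds NF-kB in the cytoplasm, led in antigen-presenting cells at 3185 CPM. These are 3′ tag counts, with 1 tag per transcript whatever its length. Over the 8 large classes, superficial cells were the lowest for 26 of 37 genes. The highest level lay in macrophages for 10 genes, in antigen-presenting cells for 9, in myofibroblasts for 7, in basal cells for 5, in fibroblasts for 4 and in endothelial cells for 2. The shares of all genes lowest or highest in each class are not given. These counts are therefore not read as a result about the list. The ratio of the highest to the lowest class ran from 1.55 for Btg2, an anti-proliferative gene, to 59.1 for Klf2, a zinc finger factor known from endothelium and leukocytes, with a median of 6.18.

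**Figure D2:**
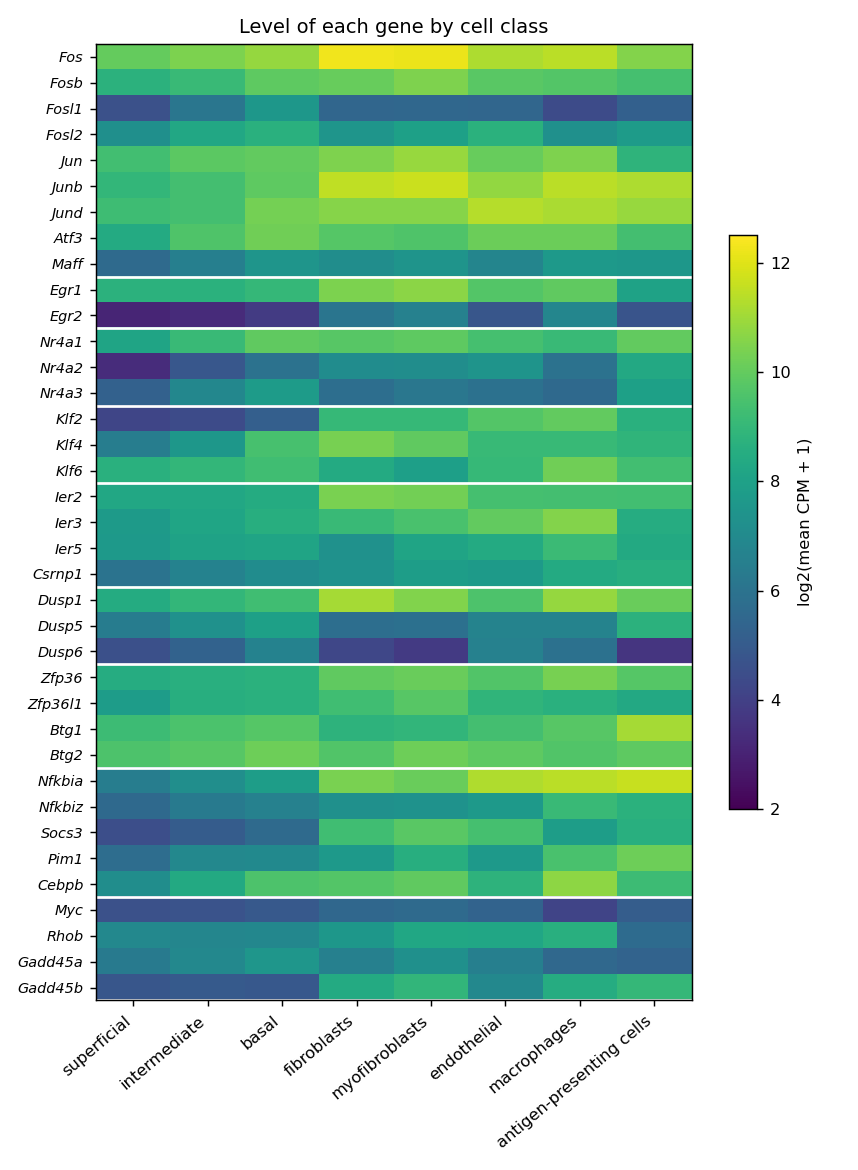
Mean level of each of the 37 genes, as log2(mean CPM + 1) (colour), in 8 cell classes (columns), with the genes grouped by family (white lines). Klf2, Socs3, Gadd45b and Nfkbia were darker in the 3 urothelial columns than in the fibroblast, myofibroblast and macrophage columns.

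Within the urothelium the share of UMIs of these genes stepped down from basal to intermediate and again from intermediate to superficial cells. A difference per cell was not tested. In intermediate against basal cells of the same libraries, 29 of 37 genes were lower and 0 higher, where 26.4% of all 12164 genes tested were lower and 23.8% higher. In superficial against intermediate cells, 27 were lower and 0 higher, where 26.8% of all 12030 genes tested were lower and 26.2% higher. The median log2 fold change over the 37 genes was -0.47 at the first step and -0.52 at the second, with a median over all genes of -0.006 and -0.003. Lower at both steps were 23 genes, lower at 1 step 10, and at neither Gadd45b, Ier2, Rhob and Zfp36. At the first step 21 genes were lower in every library, and at the second 28 were. The shares of all genes lower at both steps, or lower in every library, are not given. The counts at both steps and in every library are therefore not read as a result about the list. The higher level in basal cells was known before this list was drawn up and is not independent evidence.

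By family the counts at each step were as follows, beside the 26.4% (first step) and 26.8% (second step) of all genes that were lower. Of the 9 AP-1 and related bZIP factors, 8 were lower at each step (all but Jun at the first, all but Jund at the second). All 3 NR4A orphan nuclear receptors and all 3 MAP kinase phosphatases were lower at each step. Both EGR factors measured, Egr1 and Egr2, were lower in intermediate than in basal cells, and neither passed the test from intermediate to superficial cells, where Egr1 had means of 395 CPM in intermediate and 412 CPM in superficial cells. Of the 5 NF-kB, cytokine feedback and C/EBP genes, 4 were lower at the first step and 5 at the second. Pim1, a survival kinase, was the one that moved only at the second. All 3 KLF zinc fingers were lower at the first step and 2 at the second. Of 4 immediate early response factors 2 and then 3 were lower, of 4 mRNA decay and anti-proliferative genes 2 and 2, and of 4 growth and stress genes 2 and 1.

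Klf4, a zinc finger factor of epithelial differentiation, had the largest change at the first step of the genes named by the rule, which takes up to 6 with the largest fold change. It ranged from 135 to 313 CPM (median 168) in intermediate cells and from 481 to 1022 CPM (median 639.6) in basal cells (log2 fold change -1.91 ± 0.05 (SE), edgeR adjusted p = 1.67e-13), and its ranges did not overlap. Fosl1, the Fra-1 subunit of AP-1, ranged from 42.98 to 109 CPM (median 57.04) in intermediate cells and from 124 to 293 CPM (median 163) in basal cells (log2 fold change -1.48 ± 0.04 (SE), edgeR adjusted p = 3.07e-13). Dusp6, which switches off ERK, ranged from 21.99 to 57.9 CPM (median 34.3) in intermediate cells and from 56.5 to 141 CPM (median 101) in basal cells (log2 fold change -1.41 ± 0.07 (SE), edgeR adjusted p = 9.22e-11). The Fosl1 ranges did not overlap either, and Dusp6 was higher in basal cells in each of the 6 libraries although its ranges overlapped. Cebpb, a bZIP factor of stress and inflammation, ranged from 278 to 391 CPM (median 334) in intermediate cells and from 620.3 to 1030.4 CPM (median 746) in basal cells (log2 fold change -1.19 ± 0.06 (SE), edgeR adjusted p = 7.5e-11), with no overlap. Nr4a2 gave a log2 fold change of -1.20 ± 0.11 (SE), edgeR adjusted p = 1.09e-07, and Nr4a3 gave -0.95 ± 0.06 (SE), edgeR adjusted p = 5.13e-10. Fos itself had a smaller step, with means of 1369 and 1846 CPM (log2 fold change -0.30 ± 0.12 (SE), edgeR adjusted p = 0.0456), and was lower in intermediate cells in 5 of 6 libraries.

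At the second step Nr4a3 ranged from 18.7 to 76.2 CPM (median 24.4) in superficial cells and from 62.7 to 216 CPM (median 68.9) in intermediate cells (log2 fold change -1.61 ± 0.10 (SE), edgeR adjusted p = 3.58e-09). Fosl1 ranged from 10.4 to 46.2 CPM (median 17.96) in superficial cells and from 40.5 to 105 CPM (median 54.0) in intermediate cells (log2 fold change -1.60 ± 0.09 (SE), edgeR adjusted p = 1.23e-09). Atf3, a stress-induced bZIP factor, ranged from 211 to 452 CPM (median 317) in superficial cells and from 591 to 942 CPM (median 697) in intermediate cells (log2 fold change -1.21 ± 0.09 (SE), edgeR adjusted p = 2.5e-08), and its ranges did not overlap. Cebpb, with a log2 fold change of -1.24 ± 0.07 (SE), edgeR adjusted p = 1.55e-09, did not overlap either. Pim1 gave a log2 fold change of -1.21 ± 0.09 (SE), edgeR adjusted p = 2.25e-08 and Nr4a2 gave -1.53 ± 0.18 (SE), edgeR adjusted p = 3e-06. All 6 were lower in superficial cells in every library. The depth per cell moved with the layers: the median UMIs per cell ran from 4322 to 8762 in basal cells, from 5994 to 11698 in intermediate cells and from 10025 to 21495 in superficial cells, and its part in the steps was not tested.

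**Figure D3:**
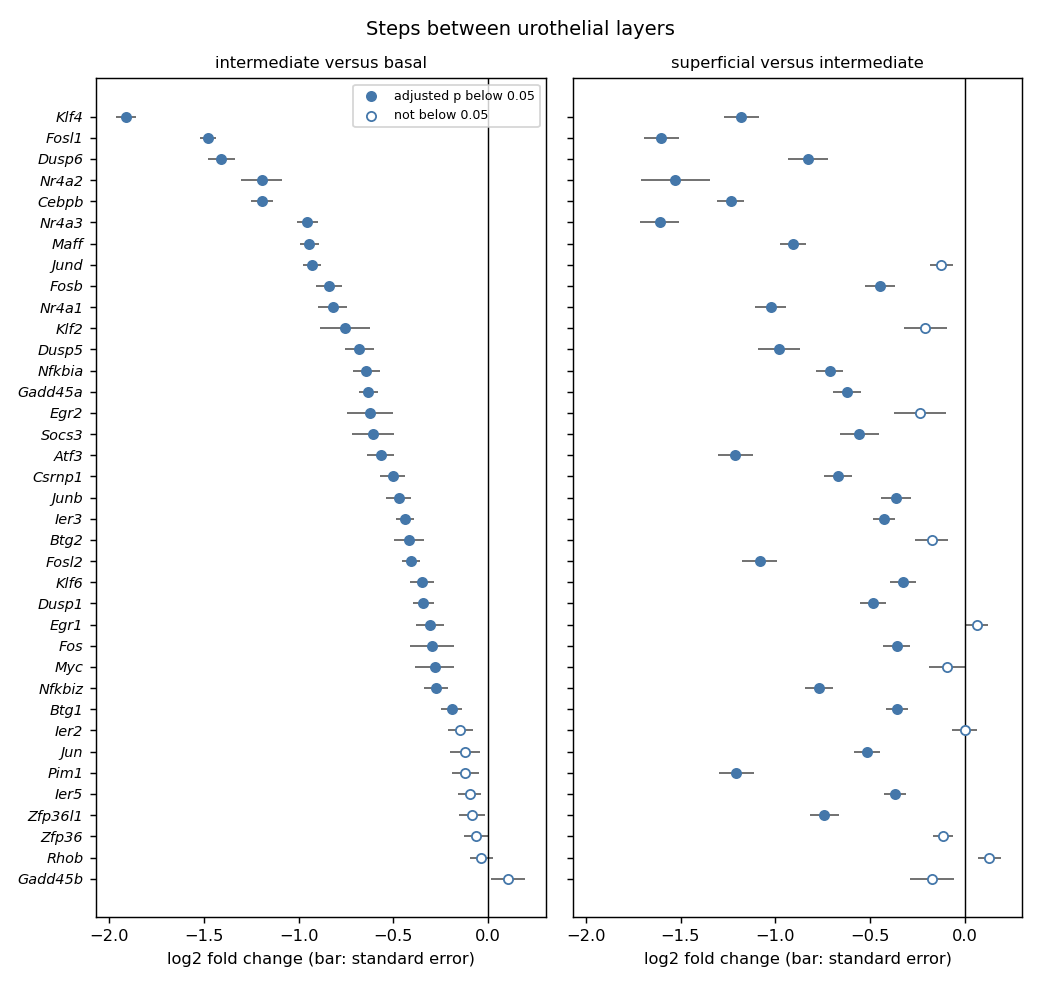
Log2 fold change (x axis, bar: standard error) of each of 37 genes (rows) from basal to intermediate cells (left) and from intermediate to superficial cells (right), over 6 libraries. Filled points passed an adjusted p of 0.05: 29 genes on the left and 27 on the right, all of them below 0.

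Other genes of the same pathways gave the frame for these steps. Of 18 other immediate-early genes, 13 were lower in intermediate than basal cells and 15 of 18 were lower in superficial than intermediate cells, among them Id3, a target of BMP signalling (-1.03 ± 0.06 and -1.29 ± 0.11 on the log2 scale). Mcl1, a survival factor, fell at the first step (-0.24 ± 0.05) and rose at the second (0.42 ± 0.06). Of 16 MAP kinase and NF-kB feedback genes, a list that also held the chemokine Cxcl2, 12 were lower and 1 higher at the first step. Tnfaip3 of this list, an inhibitor of NF-kB, was at -1.29 ± 0.09. At the second step 9 of 15 were lower. Of 12 heat shock genes, 3 were lower and 0 higher at the first step, close to the 26.4% of all genes that were lower, and at the second 2 were lower (Dnajb1 -0.72 ± 0.08 and Bag3 -0.30 ± 0.07) and 4 higher (Hsph1, Hsp90aa1, Hspd1 and Hsp90ab1). Of 8 integrated stress response genes tested, 1 was lower (Atf4) and 2 higher at the first step, and 2 were higher at the second, with Nupr1 at 1.27 ± 0.31. A difference between the lists was not tested.

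In mesenchymal cells most of these genes took a larger share of the UMIs than in urothelial cells. Of 37, 25 were higher and 7 lower, where 32.4% of all 13310 genes tested were higher and 36.6% lower. The median log2 fold change was 1.03, against -0.08 over all genes. CPM is a share of UMIs and not a count per cell, and the median UMIs per cell were 2501 to 5212 in fibroblasts and 2563 to 5264 in myofibroblasts, against 4322 to 21495 in the 3 urothelial layers. A difference per cell was not tested. In every library 20 genes were higher and 4 lower. The shares of all genes with the same direction in every library are not given, so these counts are not read as a result about the list. Klf2 ranged from 316 to 879.8 CPM (median 457) in mesenchymal cells and from 8.71 to 38.9 CPM (median 18.8) in urothelial cells (log2 fold change 4.68 ± 0.25 (SE), edgeR adjusted p = 1.14e-07). Socs3, which ends signalling by interleukin-6 type cytokines, ranged from 278 to 1289.5 CPM (median 766) in mesenchymal cells and from 17.6 to 53.5 CPM (median 29.4) in urothelial cells (log2 fold change 4.47 ± 0.19 (SE), edgeR adjusted p = 3.83e-08). Gadd45b, a growth arrest and stress gene, ranged from 151 to 903 CPM (median 302) in mesenchymal cells and from 18.3 to 47.4 CPM (median 26.8) in urothelial cells (log2 fold change 3.60 ± 0.27 (SE), edgeR adjusted p = 1.58e-06). For each of them the lowest mesenchymal library lay above the highest urothelial library, as it did for Nfkbia. Nfkbia ranged from 299 to 2114 CPM (median 1142) in mesenchymal cells and from 99.3 to 233 CPM (median 138) in urothelial cells (log2 fold change 2.78 ± 0.34 (SE), edgeR adjusted p = 5.21e-05), with acute replicate 2 the lowest of the mesenchymal values. Egr2 gave a log2 fold change of 2.81 ± 0.40 (SE), edgeR adjusted p = 0.000146 and Nr4a2 gave 2.23 ± 0.34 (SE), edgeR adjusted p = 0.000229.

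The 7 genes that were lower in mesenchymal cells were Dusp6, Dusp5, Fosl1, Nr4a3, Klf6, Btg1 and Fosl2. Dusp6 had means of 16.9 CPM in mesenchymal and 45.9 CPM in urothelial cells (log2 fold change -1.63 ± 0.24 (SE), edgeR adjusted p = 0.000151) and Dusp5, the other ERK phosphatase of the list, 60.6 and 153.9 CPM (log2 fold change -1.50 ± 0.27 (SE), edgeR adjusted p = 0.000738). Dusp1 lay the other way, at 1892 and 480.7 CPM (log2 fold change 1.82 ± 0.24 (SE), edgeR adjusted p = 7.98e-05). Within AP-1, Fos, Fosb, Jun, Junb and Jund were higher in mesenchymal cells, Fosl1 and Fosl2 were lower, and Atf3 and Maff did not pass the test. In the other lists, 12 of 16 MAP kinase and NF-kB feedback genes were higher and 2 lower, 7 of 12 heat shock genes were higher and 2 lower, 7 of 10 integrated stress response genes were higher and 1 lower, and 8 of 18 other immediate-early genes were higher and 3 lower, beside the 32.4% and 36.6% of all genes given above. Hspa1a, an inducible Hsp70 whose tags may be split with its near-identical copy Hspa1b, gave a log2 fold change of 2.74 ± 0.26 (SE), edgeR adjusted p = 9.84e-06, and Cxcl1, a neutrophil chemokine, gave 4.44 ± 0.37 (SE), edgeR adjusted p = 3.81e-06.

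Between the stromal classes, myofibroblasts had the higher level for 12 genes and fibroblasts for 2 (Dusp1 and Klf6). Of all 9819 genes tested, 9.87% were higher and 8.26% lower in myofibroblasts. The median log2 fold change over the 37 genes was 0.24. Pim1 ranged from 119 to 635 CPM (median 417) in myofibroblasts and from 67.1 to 354 CPM (median 221) in fibroblasts (log2 fold change 0.92 ± 0.14 (SE), edgeR adjusted p = 0.000319), and was higher in myofibroblasts in each of the 6 libraries. Ier5, an immediate early response factor, ranged from 144 to 426 CPM (median 284) in myofibroblasts and from 57.9 to 282 CPM (median 159) in fibroblasts (log2 fold change 0.92 ± 0.15 (SE), edgeR adjusted p = 0.000626). The spread between libraries was wider than the step between classes, and no gene had ranges that did not overlap. Of the 4 growth and stress genes, 3 were higher: Gadd45a (log2 fold change 0.87 ± 0.16 (SE), edgeR adjusted p = 0.00158), Rhob, a small GTPase (log2 fold change 0.68 ± 0.17 (SE), edgeR adjusted p = 0.0121), and Gadd45b (log2 fold change 0.68 ± 0.19 (SE), edgeR adjusted p = 0.0249). Socs3 gave a log2 fold change of 0.70 ± 0.18 (SE), edgeR adjusted p = 0.0148. Fos did not pass, with means of 4699.7 CPM in myofibroblasts and 4916 CPM in fibroblasts. Without healthy replicate 1, 8 genes passed in place of 14 (12.8% of all genes in place of 18.1%) and Socs3 had an adjusted p of 0.0617 in edgeR. Gadd45b had an adjusted p of 0.0703 without healthy replicate 2 and of 0.0733 without acute replicate 2.

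Endothelial cells were then set against mesenchymal cells. Healthy replicate 2 held only 15 of them and was left out, so 5 libraries entered. Of 37 genes, 6 were higher (Dusp6, Nfkbia, Fosl2, Dusp5, Klf6 and Jund) and 10 lower, where 15% of all 7470 genes were higher and 19.3% lower. The counts lay near these shares and are not read as a result about the list. Dusp6 ranged from 40.05 to 169 CPM (median 133) in endothelial cells and from 7.94 to 41.98 CPM (median 17.3) in mesenchymal cells (log2 fold change 2.86 ± 0.45 (SE), edgeR adjusted p = 0.000194). Cebpb ranged from 344 to 847 CPM (median 492) in endothelial cells and from 804 to 1362 CPM (median 1022) in mesenchymal cells (log2 fold change -1.13 ± 0.22 (SE), edgeR adjusted p = 0.00118) and was lower in each of the 5 libraries. For 18 of the 37 genes exactly 1 library had the higher endothelial value, and for 17 of these it was acute replicate 2. Gadd45b gave a log2 fold change of -1.57 ± 0.37 (SE), edgeR adjusted p = 0.00449, Dusp1 gave -1.19 ± 0.29 (SE), edgeR adjusted p = 0.0055, Klf4 gave -1.04 ± 0.28 (SE), edgeR adjusted p = 0.00968 and Ier2 gave -1.01 ± 0.26 (SE), edgeR adjusted p = 0.00676. These 4 were lower in 4 of 5 libraries. In acute replicate 2, whose mesenchymal levels stood low, they were higher in endothelial cells. Without acute replicate 1, 6 genes passed in place of 16 (25.2% of all genes in place of 34.3%), without chronic replicate 1, 7 did (32% of all), and without acute replicate 2, 23 did (29.6% of all). Dusp1, Ier2 and Klf4 passed neither without acute replicate 1 nor without chronic replicate 1, and Klf4 did not pass without chronic replicate 2 (adjusted p = 0.0608, edgeR) nor Gadd45b without acute replicate 1 (adjusted p = 0.0610, edgeR). Dusp2, a phosphatase known from activated leukocytes, led the feedback list with a log2 fold change of 5.11 ± 0.63 (SE), edgeR adjusted p = 1.76e-05. The summed level of the 13 urothelial markers in endothelial cells ran from 3104 CPM in healthy replicate 1 to 18037 CPM in chronic replicate 2.

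Macrophages carried the feedback genes of NF-kB and the zinc finger Klf6 at higher levels than mesenchymal cells. Of 37 genes, 13 were higher and 10 lower, where 19.1% of all 6196 genes were higher and 21.8% lower. Klf6 ranged from 954 to 1507 CPM (median 1134) in macrophages and from 144 to 423 CPM (median 286) in mesenchymal cells (log2 fold change 2.099 ± 0.19 (SE), edgeR adjusted p = 2.63e-07). Nfkbiz, a nuclear cofactor of NF-kB, ranged from 248 to 841 CPM (median 559.8) in macrophages and from 25.8 to 271 CPM (median 159) in mesenchymal cells (log2 fold change 2.05 ± 0.35 (SE), edgeR adjusted p = 0.000177). Nfkbia ranged from 1513 to 4052 CPM (median 2762) in macrophages and from 297 to 2026 CPM (median 1054) in mesenchymal cells (log2 fold change 1.46 ± 0.33 (SE), edgeR adjusted p = 0.00202). All 3 were higher in macrophages in each of the 6 libraries, although only the Klf6 ranges did not overlap. Dusp6 gave a log2 fold change of 2.12 ± 0.30 (SE), edgeR adjusted p = 2.61e-05 and Ier5 gave 1.53 ± 0.20 (SE), edgeR adjusted p = 1.19e-05. Socs3 was lower, from 82.5 to 364 CPM (median 226) in macrophages and from 276 to 1190.0 CPM (median 719) in mesenchymal cells (log2 fold change -1.48 ± 0.35 (SE), edgeR adjusted p = 0.00298). None of the 9 genes of the AP-1 group was higher. Cebpb, a bZIP factor counted with the C/EBP genes, was higher at 1685 against 848.6 CPM (log2 fold change 0.74 ± 0.27 SE, edgeR adjusted p = 0.0404), in 4 of 6 libraries. Fos was lower with means of 2763 and 4457 CPM (log2 fold change -0.64 ± 0.18 (SE), edgeR adjusted p = 0.00822). Of the 16 genes of the feedback list, 10 were tested in this comparison and 9 were higher in macrophages. A gene could pass the filter on low counts through macrophages alone, so this count is not read as a result about that list. Cxcl2, a neutrophil chemokine of the list and not itself a feedback inhibitor, gave a log2 fold change of 8.32 ± 0.44 (SE), edgeR adjusted p = 5.5e-10. As the classes were made by clustering the same cells, though without the listed genes, these p-values describe how well the classes separated across libraries.

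The injury groups were then set against the healthy group in each class. No gene of the 37 passed an adjusted p of 0.05 in edgeR in any of the 18 comparisons, and none did in DESeq2, where 0.0797% to 2.78% of all genes with an adjusted p passed. In endothelial cells DESeq2 gave no adjusted p for 9 (acute) and 4 (chronic) of the 37. The shares of all genes that passed in edgeR were 0.00724% (acute) and 0% (chronic) in all urothelial cells, 0% in basal, intermediate, superficial and all mesenchymal cells in either injury, 0.00906% in fibroblasts in either, 0.0114% (acute) and 0% (chronic) in myofibroblasts, 0% and 0.0296% in macrophages and 0.0893% and 0.197% in endothelial cells. So the injured libraries are described by their values. With each library left out in turn, where a fit could be run, 44 of the 66 fold changes of genes named in these comparisons came nearer to 0 by more than 1.5 times on the log2 scale. These genes were named because both injured libraries lay on one side of both healthy ones, so a kept sign shows nothing. With 2 libraries against 2, an exact permutation test of a gene cannot go below 0.333.

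In all urothelial cells most fold changes were negative, although none passed the test and the libraries of most genes overlapped. The median log2 fold change over the 37 genes was -0.30 in acute and -0.33 in chronic injury (all genes 0.005 and 0.002), and 31 of 37 were negative in each. At an unadjusted p below 0.05, 3 genes were lower in acute injury (Socs3, Ier3 and Zfp36), as were 1.35% of all genes, and 4 in chronic injury (Nr4a1, Egr2, Nr4a2 and Klf4), as were 3.42% of all genes. None of the 37 was higher at that level, where 5.20% (acute) and 3.98% (chronic) of all genes were. For 11 genes both acute libraries lay below both healthy ones (16.4% of all genes did) and for 0 above (17.7%). In chronic injury these counts were 11 (19%) and 0 (18.8%). The 2 comparisons share their healthy libraries. The mitochondrial share of UMIs in intermediate cells was 3.47% and 3.77% in the healthy libraries. It was 3.095% and 2.34% in the acute and 3.86% and 2.21% in the chronic libraries, and its part was not tested. The make-up of the pooled cells moved with the groups: basal cells were 25.6% and 33.9% of urothelial cells in the healthy libraries and 17.1% to 18.4% in the injured ones, superficial cells 6.56% and 3.88% against 9.46% to 12.3%, and cycling basal cells 10.4% in acute replicate 1 against 0.476% to 3.07% elsewhere. As the genes stood higher in basal than in superficial cells, values within a layer are given further on, and the part of the make-up in the pooled values was not tested. The summed level of the 3 erythroid markers moved with the groups as well, at 494 and 385 CPM in the healthy and 0.848 to 64.6 CPM in the injured libraries in urothelial cells, and at 389 and 1520 CPM against 1.79 to 165 CPM in all mesenchymal cells, and its part was not tested.

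Socs3 in urothelial cells was at 24.9 and 53.2 CPM in the healthy libraries, 21.4 and 17.8 CPM in the acute libraries and 45.7 and 33.4 CPM in the chronic libraries (acute log2 fold change -0.99 ± 0.36 (SE), edgeR adjusted p = 0.641). The acute values lay below both healthy values, and the healthy values differed from each other by more than the acute from the lower of them. Without healthy replicate 2 its log2 fold change was -0.37. Ier3, a survival-linked early response gene, was at 384 and 318 CPM in the healthy libraries, 262 and 193 CPM in the acute libraries and 296 and 227 CPM in the chronic libraries (acute log2 fold change -0.63 ± 0.24 (SE), edgeR adjusted p = 0.685). Zfp36, which destabilises cytokine mRNAs, was at 399.8 and 503 CPM in the healthy libraries, 298 and 306 CPM in the acute libraries and 306 and 451 CPM in the chronic libraries (acute log2 fold change -0.58 ± 0.24 (SE), edgeR adjusted p = 0.749). In both, the acute libraries lay below the healthy ones with no overlap. Nr4a2 was at 42.8 and 46.7 CPM in the healthy libraries, 40.4 and 10.03 CPM in the acute libraries and 20.7 and 13.7 CPM in the chronic libraries (chronic log2 fold change -1.38 ± 0.57 (SE), edgeR adjusted p = 0.663, acute log2 fold change -0.83 ± 0.56 (SE), edgeR adjusted p = 0.979). Its low values were acute replicate 2 and both chronic libraries, while acute replicate 1 stood close to the healthy level. Nr4a1 was at 632 and 824 CPM in the healthy libraries, 608 and 469 CPM in the acute libraries and 479.7 and 426 CPM in the chronic libraries (chronic log2 fold change -0.69 ± 0.22 (SE), edgeR adjusted p = 0.594), and Klf4 at 310.0 and 302 CPM in the healthy libraries, 403 and 209 CPM in the acute libraries and 164 and 201 CPM in the chronic libraries (chronic log2 fold change -0.75 ± 0.31 (SE), edgeR adjusted p = 0.664). For both genes the chronic libraries lay below the healthy ones, and for Klf4 acute replicate 1 was the highest of all. Junb and Ier2 (acute) and Nr4a3, Fosl1 and Atf3 (chronic) were the other genes named by the rule, with log2 fold changes from -1.12 to -0.53 and adjusted p-values of 0.686 to 0.938 in edgeR. Each came nearer to 0 when 1 library was left out. Without healthy replicate 2 the log2 fold change was -0.25 for Junb (in place of -0.82) and -0.11 for Atf3 (-0.53). Without healthy replicate 1 it was -0.35 for Nr4a3 (-1.12) and -0.23 for Fosl1 (-0.74), and without acute replicate 1 it was -0.35 for Ier2 (-0.69). For Nr4a2 in acute injury it was -0.16 without acute replicate 2.

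Within the layers the medians lay nearest to 0 in basal cells in acute injury and farthest from it in superficial cells. The median log2 fold change was -0.09 (acute) and -0.22 (chronic) in basal, -0.13 and -0.18 in intermediate and -0.41 and -0.33 in superficial cells, and a difference between layers was not tested. At an unadjusted p below 0.05, 1 gene was lower in acute basal cells (Socs3, with 0.503% of all genes lower) and 0 in chronic (1.99%), 0 in acute intermediate cells (0.446%) and 1 in chronic (Nr4a1, 1.81%), 3 in acute superficial cells (Myc, Atf3 and Gadd45b, 2.67%) and 2 in chronic (Nr4a1 and Myc, 3.69%). In none of these 6 comparisons was a gene of the 37 higher at that level, where 1.77% to 3.43% of all genes were. Socs3 in basal cells was at 41.5 and 91.7 CPM in the healthy libraries, 28.9 and 27.3 CPM in the acute libraries and 70.1 and 42.9 CPM in the chronic libraries (acute log2 fold change -1.25 ± 0.41 (SE), edgeR adjusted p = 1). Nr4a1 in superficial cells was at 378 and 305 CPM in the healthy libraries, 353 and 156 CPM in the acute libraries and 193 and 197 CPM in the chronic libraries (chronic log2 fold change -0.81 ± 0.35 (SE), edgeR adjusted p = 0.718). Atf3 there was at 443 and 373 CPM in the healthy libraries, 303 and 207 CPM in the acute libraries and 281 and 319 CPM in the chronic libraries (acute log2 fold change -0.68 ± 0.24 (SE), edgeR adjusted p = 0.706). Both chronic libraries and acute replicate 2 were low for Nr4a1, and for Atf3 all 4 injured libraries lay below the healthy ones. In basal cells 4 genes had both acute libraries below both healthy ones (13.6% of all genes) and 1 above (13.5%), and in chronic injury 6 were below (16.1%) and 0 above (14%). In intermediate cells these counts were 7 (13.4%) and 2 (13.4%) in acute and 5 (17.3%) and 2 (16.2%) in chronic injury. In superficial cells 11 genes had both acute libraries below both healthy ones (16.3% of all genes) and 0 above (17.5%), and in chronic injury 8 were below (17.7%) and 2 above (17.9%). Healthy replicate 1 was the highest library for 21 of 37 genes in superficial cells (21.3% of all genes), and without it the mean over the genes differed by -0.036 (acute) and 0.051 (chronic) in place of -0.33 and -0.24. In intermediate cells the mean differed by 0.042 (acute) and -0.012 (chronic) without healthy replicate 1, in place of -0.13 and -0.18. The other genes named in the layers were Zfp36 and Egr1 (acute) and Nr4a2, Ier3 and Klf4 (chronic) in basal cells, Ier2, Junb and Fos (acute) and Nr4a2 and Klf4 (chronic) in intermediate cells, and Socs3 (chronic, 0.54) in superficial cells. Apart from Socs3 their log2 fold changes ran from -1.14 to -0.38. In acute injury, without healthy replicate 2, the log2 fold change in basal cells was -0.56 for Socs3 (in place of -1.25), -0.06 for Egr1 (-0.51) and -0.16 for Zfp36 (-0.56), and in intermediate cells -0.15 for Fos (-0.57) and -0.18 for Junb (-0.60). Ier2 in intermediate cells was at -0.37 without acute replicate 1 (-0.68). In chronic basal cells Nr4a2 was at -0.52 and Ier3 at -0.24 without chronic replicate 2 (-1.08 and -0.40), and Klf4 at -0.20 without chronic replicate 1 (-0.38). In superficial cells Socs3 was at 0.24 and Myc at -0.42 (acute) and -0.36 (chronic) without healthy replicate 1, Atf3 at -0.45 without acute replicate 2 and Gadd45b at -0.35 without acute replicate 1.

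In all mesenchymal cells the median log2 fold change was -0.13 in acute and 0.34 in chronic injury (all genes -0.006 and -0.026), with 0 genes past an unadjusted p of 0.05 in either, where 2.00% and 4.87% of all genes were. The make-up of these sums varied by library: myofibroblasts were 8.97% (chronic replicate 1) to 60.9% (acute replicate 2) of the cells, and a sub-cluster that also carried urothelial markers was 1.11% in acute replicate 2, 8.85% and 11.4% in the healthy libraries and 13.3% to 18.6% in the other 3. Without that sub-cluster and the cycling cells the mean of injured minus healthy cells was -0.21 in acute and 0.40 in chronic injury. Both acute libraries lay above both healthy ones for 2 genes (12.6% of all genes) and below for 2 (13%), and both chronic libraries above for 9 (17.2%) and below for 2 (18.8%). The 2 acute libraries did not share a direction. The mean over the 37 genes was 9.02 in acute replicate 1 and 7.58 in acute replicate 2, on either side of the healthy libraries (8.92 and 8.16). Without acute replicate 1 the mean of acute minus healthy cells was -0.996 and without acute replicate 2 it was 0.496, where it was -0.24 with both. The chronic minus healthy mean was 0.30 with all libraries, -0.090 without healthy replicate 2 and 0.67 without healthy replicate 1. Cebpb was at 725 and 474 CPM in the healthy libraries, 1262 and 923 CPM in the acute libraries and 855 and 1189 CPM in the chronic libraries (acute log2 fold change 0.87 ± 0.38 (SE), edgeR adjusted p = 1, chronic log2 fold change 0.77 ± 0.38 (SE), edgeR adjusted p = 0.89), and all 4 injured libraries lay above the healthy ones. Gadd45b was at 912 and 314 CPM in the healthy libraries, 421 and 158 CPM in the acute libraries and 288 and 240.2 CPM in the chronic libraries (chronic log2 fold change -1.21 ± 0.61 (SE), edgeR adjusted p = 0.89), with healthy replicate 1 far above the rest. Btg2 was at 912 and 684 CPM in the healthy libraries, 1048 and 993 CPM in the acute libraries and 1109 and 1289 CPM in the chronic libraries (chronic log2 fold change 0.59 ± 0.33 (SE), edgeR adjusted p = 0.89), again with the 4 injured libraries above the healthy ones. Fos was at 4867 and 4814 CPM in the healthy libraries, 4508 and 2260.5 CPM in the acute libraries and 6726 and 5313 CPM in the chronic libraries (acute log2 fold change -0.52 ± 0.42 (SE), edgeR adjusted p = 1), with only acute replicate 2 well below the others. The remaining genes named by the rule, Klf2 in acute and Fosl1, Ier3 and Klf6 in chronic injury, had log2 fold changes of -0.68, 0.89, -0.71 and 0.58, with adjusted p-values of 0.918 to 1 in edgeR. Without healthy replicate 1 the log2 fold change in chronic injury was -0.26 for Gadd45b and -0.25 for Ier3, and in acute injury -0.43 for Klf2. Without healthy replicate 2 it was 0.51 for Fosl1, 0.48 for Cebpb and 0.39 for Btg2 in chronic and 0.16 for Btg2 in acute injury, and without acute replicate 2 it was -0.09 for Fos.

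In fibroblasts and myofibroblasts the chronic values leaned upward. The median log2 fold change was 0.05 (acute) and 0.41 (chronic) in fibroblasts and -0.26 and 0.44 in myofibroblasts. Both chronic libraries lay above both healthy ones for 13 genes in fibroblasts (18.4% of all genes) and below for 2 (22.2%), and for 12 (19.1%) and 1 (18.2%) in myofibroblasts. In acute injury 3 genes lay above (15.4%) and 2 below (16.3%) in fibroblasts, and 1 above (14.1%) and 6 below (14.3%) in myofibroblasts. At an unadjusted p below 0.05, 1 gene was higher (Cebpb in acute, Dusp6 in chronic) and 1 lower (Rhob) in fibroblasts in each injury, where 2.21% of all genes were higher and 0.860% lower in acute and 3.77% and 2.76% in chronic injury. In myofibroblasts 0 passed in acute injury (2.60% of all genes) and 1 was higher in chronic injury (4.38%). The size of the chronic lean turned on the healthy libraries: without healthy replicate 2 the chronic minus healthy mean over the 37 genes was 0.035 in place of 0.37 in fibroblasts and -0.059 in place of 0.32 in myofibroblasts, while without healthy replicate 1 it was 0.68 and 0.65. The urothelial marker sum also stood high in the chronic stroma, at 6918.5 and 11646 CPM in fibroblasts against 1509 to 4498 CPM in the other 4 libraries, and at 9054 and 5588 CPM in myofibroblasts against 1645 to 4857 CPM. All 13 markers were above 0 in each of these libraries. Chronic replicate 2 also stood apart in fibroblasts, as the lowest of the 6 libraries for 39.8% of all genes and the highest for 30.6%, and with a mesenchymal marker sum of 10563 CPM against 27896 to 50322 CPM. The part of these in the values was not tested.

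Cebpb in fibroblasts was at 579.8 and 455 CPM in the healthy libraries, 1297 and 949 CPM in the acute libraries and 842 and 907 CPM in the chronic libraries (acute log2 fold change 1.12 ± 0.37 (SE), edgeR adjusted p = 1), and in myofibroblasts at 807 and 523 CPM in the healthy libraries, 1249 and 890.5 CPM in the acute libraries and 881 and 1541 CPM in the chronic libraries (chronic log2 fold change 0.86 ± 0.37 (SE), edgeR adjusted p = 0.707, acute log2 fold change 0.68 ± 0.37 (SE), edgeR adjusted p = 1). In both classes all 4 injured libraries were above both healthy ones. Rhob in fibroblasts was at 309 and 227 CPM in the healthy libraries, 159 and 158 CPM in the acute libraries and 147 and 136 CPM in the chronic libraries (acute log2 fold change -0.76 ± 0.33 (SE), edgeR adjusted p = 1, chronic log2 fold change -0.92 ± 0.34 (SE), edgeR adjusted p = 0.739), low in all 4 injured libraries. Klf2 in fibroblasts was at 865 and 608 CPM in the healthy libraries, 334 and 234 CPM in the acute libraries and 977 and 132 CPM in the chronic libraries (acute log2 fold change -1.38 ± 0.72 (SE), edgeR adjusted p = 1), low in the acute libraries and in chronic replicate 2. Dusp6 in fibroblasts was at 8.48 and 3.97 CPM in the healthy libraries, 17.6 and 5.31 CPM in the acute libraries and 16.5 and 58.96 CPM in the chronic libraries (chronic log2 fold change 2.24 ± 0.80 (SE), edgeR adjusted p = 0.739), and without chronic replicate 2, with its 58 cells, the log2 fold change was 1.41. Fosl1 was at 21.8 and 16.6 CPM in the healthy libraries, 119 and 11.6 CPM in the acute libraries and 44.3 and 54.4 CPM in the chronic libraries (chronic log2 fold change 1.31 ± 0.87 (SE), edgeR adjusted p = 0.844), where acute replicate 1 was higher than both chronic libraries. Both genes stand higher in urothelial than in mesenchymal cells, as given above. Btg1 (chronic fibroblasts, log2 fold change 1.25) and, in myofibroblasts, Dusp5 and Fos (acute, -0.87 and -0.54) and Gadd45b and Nr4a1 (chronic, -0.82 and 0.78) were the others named by the rule. Without chronic replicate 2, Btg1 was at 0.53, Nr4a1 at 0.22 and Cebpb in chronic myofibroblasts at 0.35. Without acute replicate 2, Dusp5 was at -0.28 and Fos at -0.22, without healthy replicate 1 Gadd45b was at -0.25, and without healthy replicate 2 Cebpb in acute myofibroblasts was at 0.40.

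**Figure D4:**
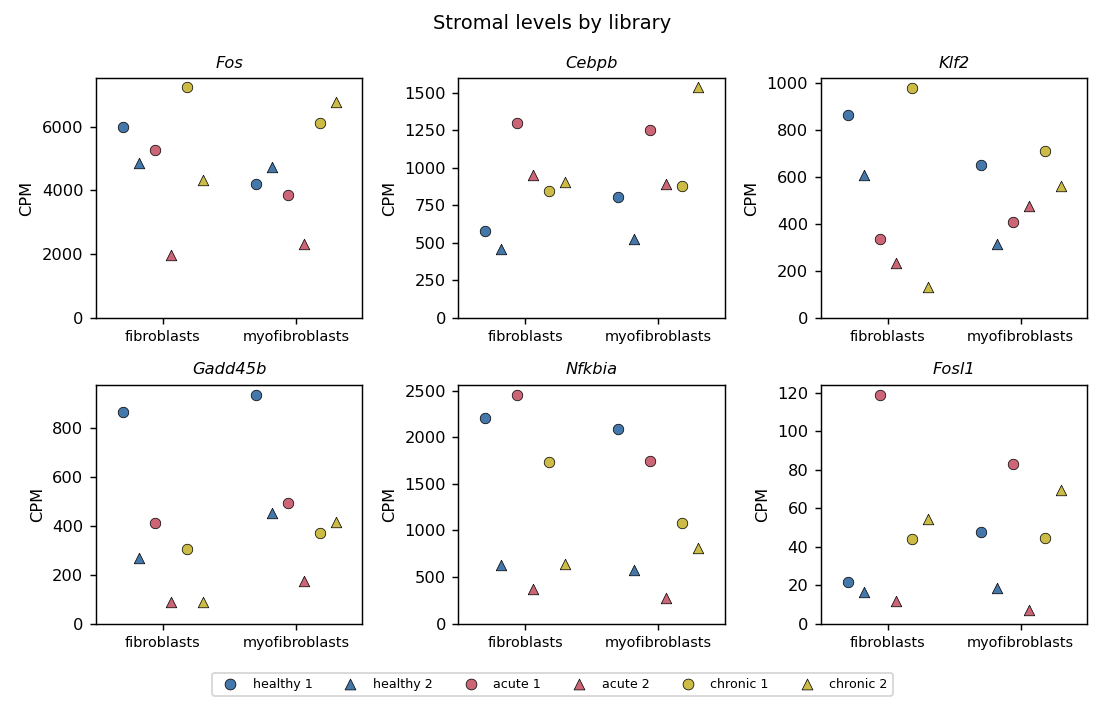
CPM of 6 genes (y axes, from 0) in fibroblasts and myofibroblasts, with 1 point per library (colour for the group, shape for the replicate). For Cebpb all injured libraries lay above the healthy ones in both classes, and for Fos acute replicate 2 was the lowest library in both, at 2302 CPM in myofibroblasts.

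**Figure D5:**
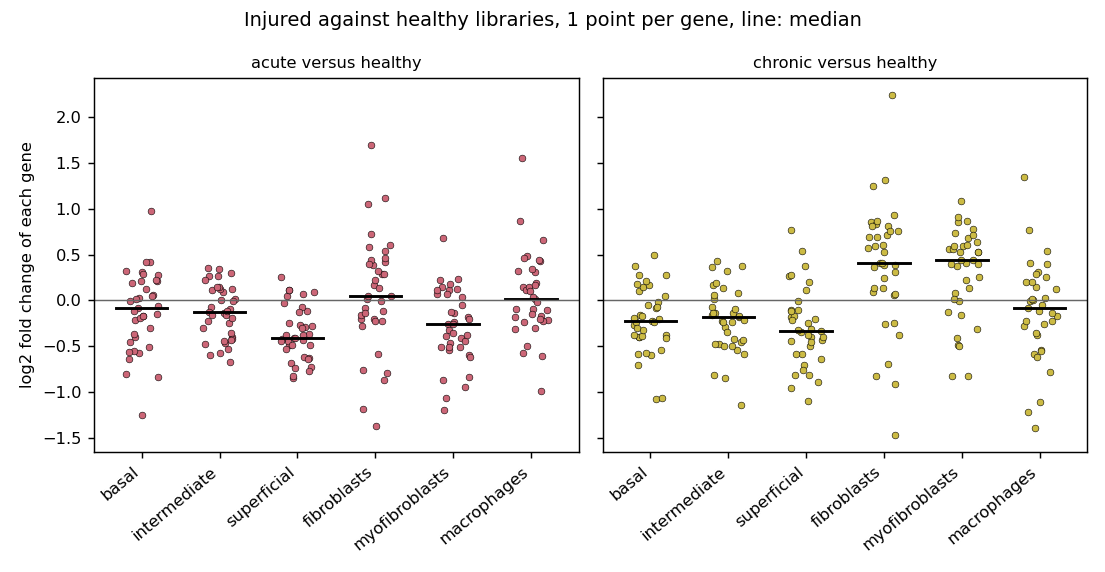
Log2 fold change against the healthy libraries (y axis) of each gene (points) in 6 cell classes (x axis), for acute (left) and chronic injury (right), with a line at the median. The chronic medians were 0.41 and 0.44 in fibroblasts and myofibroblasts and -0.33 to -0.18 in the urothelial layers.

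Whether the effect of injury differed between mesenchymal and urothelial cells was tested as an interaction of class and group. No gene passed in either injury in edgeR (0% of 14038 genes) or DESeq2. At an unadjusted p below 0.05, 1 gene passed for acute injury (3.13% of all genes), Cebpb, with a difference of 0.95 ± 0.36 (SE) on the log2 scale. For chronic injury 4 did (7.69% of all genes), all with a chronic minus healthy log2 change that was higher in mesenchymal than in urothelial cells: Nr4a3 (1.57 ± 0.51), Dusp6 (1.46 ± 0.29), Fosb (1.19 ± 0.47) and Nr4a1 (1.16 ± 0.43), with adjusted p-values of 0.622 in edgeR. These were picked after their values were seen. The median difference over the 37 genes was 0.14 for acute and 0.71 for chronic injury, against 0.004 and 0.018 over all genes. The mesenchymal sums of the chronic libraries also had the highest urothelial marker levels, 7742 and 9066 CPM against 1722 to 4982 CPM in the other 4. Dusp6 and Nr4a3 stood higher in urothelial than in mesenchymal cells. In mesenchymal cells chronic replicate 2, with 194 of them, had 36.6 CPM of Dusp6 and 126 CPM of Nr4a3, while chronic replicate 1 had 15.4 and 40.5 CPM, within the range of the healthy libraries (8.60 and 15.4 CPM, and 34.6 and 66.6 CPM). The part of the markers and of this library in the differences was not tested.

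In macrophages 35 of the 37 genes passed the filter on low counts. At an unadjusted p below 0.05, 0 genes passed in acute injury (2.13% of all genes) and 1, Gadd45b, was lower in chronic injury (2.84%). Gadd45b was at 562 and 378 CPM in the healthy libraries, 274 and 483 CPM in the acute libraries and 112 and 247 CPM in the chronic libraries (chronic log2 fold change -1.39 ± 0.49 (SE), edgeR adjusted p = 0.927), with the 2 chronic libraries below the other 4. Nr4a2 was at 31.5 and 21.5 CPM in the healthy libraries, 70.2 and 85.1 CPM in the acute libraries and 13.1 and 127 CPM in the chronic libraries (acute log2 fold change 1.55 ± 0.81 (SE), edgeR adjusted p = 0.999), with the acute libraries above the healthy ones and the chronic libraries on either side of all others. Egr1, Klf4, Ier5 and Btg2 (chronic) and Fosl2 and Btg2 (acute) were the other genes named, with log2 fold changes from -0.58 to 0.49. Without healthy replicate 2, Fosl2 was at 0.10, without healthy replicate 1 Klf4 was at -0.31, and without chronic replicate 1 Gadd45b was at -0.90. Each library held 36 to 124 macrophages. The urothelial marker sum in macrophages was 10297 CPM in chronic replicate 1 and 1507 to 6404 CPM in the other libraries, and its part was not tested.

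In endothelial cells the healthy group was 1 library, so its spread is taken from the other groups. At an unadjusted p below 0.05, 0 genes passed in acute injury (2.77% of all genes) and 4 were lower in chronic injury (Nr4a2, Dusp6, Gadd45b and Pim1), where 7.34% of all genes were lower. Gadd45b was at 281 CPM in healthy replicate 1, 96.3 and 243 CPM in the acute libraries and 99.8 and 26.4 CPM in the chronic libraries (chronic log2 fold change -2.24 ± 0.74 (SE), edgeR adjusted p = 0.219). Nr4a2 was at 271 CPM in healthy replicate 1, 454 and 245 CPM in the acute libraries and 74.9 and 44.1 CPM in the chronic libraries (chronic log2 fold change -2.22 ± 0.62 (SE), edgeR adjusted p = 0.132). Dusp6 was at 176 CPM in healthy replicate 1, 147 and 185 CPM in the acute libraries and 49.9 and 44.1 CPM in the chronic libraries (chronic log2 fold change -1.90 ± 0.61 (SE), edgeR adjusted p = 0.204). For each the chronic libraries lay below the healthy library, and for Nr4a2 and Dusp6 below the acute libraries as well. Without acute replicate 1 or without acute replicate 2, Gadd45b and Nr4a2 passed in edgeR (adjusted p of Gadd45b 0.0148 and 0.0158, of Nr4a2 0.0172 and 0.0231), as did 5.19% and 5.17% of all genes. Those fits held 1 healthy, 1 acute and 2 chronic libraries, so the spread rested on the 2 chronic libraries alone. The chronic libraries also had the highest urothelial marker sums in this class, 15761 and 18037 CPM against 3104 to 8451 CPM, and the healthy library the highest sum of erythroid markers, 6915 CPM against at most 23.2 CPM. The sum of the 7 endothelial markers was 3071 and 1389 CPM in the chronic libraries and 3084 to 5872 CPM in the others. The part of these in the result was not tested. Btg2, Nfkbiz and Nr4a1 were named in acute injury, with log2 fold changes of 1.02, -0.97 and 0.90, and Btg2 was at 0.47 and Nfkbiz at -0.49 without acute replicate 2. None of the 56 genes of the other 4 lists passed an adjusted p of 0.05 in edgeR in any injury comparison.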

How the data were processed

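Single-cell suspensions of bladder mucosa were run on the 10x Genomics 3′ platform, and the authors processed the reads with Cell Ranger 2.1.1 (mm10) and deposited their raw UMI counts, with genes in rows and cells in columns, as 1 table a library. The deposited tables hold only cells below about 10% mitochondrial UMIs. One table ended in a cut-off line, which was dropped, and the 6 tables do not share a gene list: they list 15065 to 20180 genes, and those of healthy replicate 1 and acute replicate 1 hold only genes found in at least 8 and 6 cells. The study states that its libraries were processed and sequenced in batches. The labels do not give the batch of a library, so it entered no fit, and how batch and group overlap is not known. Median UMIs per cell were 9138, 9041 and 8665 in healthy replicate 1, acute replicate 1 and chronic replicate 2. They were 7237, 5747 and 5530 in healthy replicate 2, acute replicate 2 and chronic replicate 1. The mean over the 37 genes in mesenchymal cells was 8.92, 9.02 and 8.96 in the former and 8.16, 7.58 and 8.71 in the latter. In urothelial cells it was 7.81, 7.48 and 7.39 against 7.61, 7.33 and 7.39. The part of depth and batch in these values was not tested.

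Cells with at least 500 genes and under 10% mitochondrial UMIs were kept. Doublets were called per library with Scrublet in scanpy 1.11.5 at 0.8% per 1000 cells, and 4469 called doublets and a cluster of 1610 cells rich in them were left out. Seurat 5.3.0 with sctransform 0.4.2 integrated the libraries on 3000 features from which the 93 listed genes were excluded, and Leiden clustering on 30 components at resolution 0.8 gave 18 clusters, split into 14 urothelial and 11 mesenchymal sub-clusters. Names came from marker genes, and rebuilt names can differ from those of the study.

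UMIs were summed per library and class where a sum held at least 20 cells. edgeR 4.0.16 (TMM, filterByExpr, quasi-likelihood test, R 4.3.3) was fitted over all genes that passed its filter, with Benjamini-Hochberg adjustment over all of them and a threshold of 0.05. This test gives no standard error. Each SE printed or drawn is the absolute log2 fold change divided by the square root of the F statistic. Class pairs and interactions carried the library as a block, and injury comparisons carried the group. DESeq2 1.42.0 was an alternative, and a replicate block, RLE size factors, no count filter, stricter cells and each library left out were others. Replicate numbers did not pair the libraries. The fits were tested on simulated data. The genes and lists were chosen with earlier results of these data known. Values by library are given, per comparison with the healthy group, for genes with both injured libraries on one side of both healthy ones, at least 20 CPM and the largest fold changes, and, per class pair, for the 6 largest called fold changes.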

Additional observations from a re-analysis of the deposited data

Results flagged for a closer look

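Egr3 and Cebpd were not listed in all 6 tables and entered no comparison, and both carried UMIs in acute replicate 2. Egr3, the third EGR factor of the list, had 584 UMIs there, against 10 and 3 in the healthy libraries and 6 and 1 in the chronic libraries, and it was not listed in acute replicate 1. In acute replicate 2 it was found in 20.8% of 331 endothelial cells, at 104 CPM (exact Poisson 95% interval 84.9 to 126, which covers counting error only). It followed at 34.5 CPM in antigen-presenting cells, 14.6 in cycling basal cells and 9.47 in basal cells, and fell to 1.81 CPM in intermediate and 1.13 CPM in superficial cells. In NK and T cells it had 0 UMIs in 252 cells, which allows up to 6.69 CPM by the same interval. The CPM of Egr3 and Cebpd were taken over the total UMIs of each class in acute replicate 2, without TMM scaling. They are not on the scale of the class levels given above for the other genes. As the 6 tables do not share a gene list, and that of acute replicate 1 holds only genes found in at least 6 cells, the difference between libraries and the way the tables were made cannot be told apart.

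Cebpd, a bZIP factor related to Cebpb, was listed in acute replicate 2 alone, with 7998 UMIs in 3479 cells. Its level, on the same scale without TMM as that of Egr3, was 1024 CPM (921 to 1136) in mural cells and 608 CPM (561 to 659) in endothelial cells. It was 272 CPM in myofibroblasts and 166 CPM in fibroblasts. In urothelial cells it was 21.3 CPM in basal, 12.1 CPM in intermediate and 8.55 CPM in superficial cells. The summed mesenchymal markers, which urothelial cells should lack, stood in these same urothelial cells at 2.103% to 2.28% of their level in mesenchymal cells. The part of free RNA in the low urothelial levels of Cebpd was not tested. Cebpd was found in 77.5% of 120 mural cells (median 2876 UMIs a cell) and in 5.16% of 252 NK and T cells (median 1985.5 UMIs). In the latter its level, 23.6 CPM, was as low as in basal cells. No other library gives a value to set these against.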

How the results depend on the processing

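The counts of genes called, the means over the genes and the log2 fold changes of the named genes were recomputed under the alternatives. No fold change that had passed the test changed its sign. Apart from leaving out libraries, most recomputed counts were the 0 of an injury comparison or interaction and stayed at 0. Of all 164, 163 stayed within 1.5 times, which says little about the class pairs. The exception was chronic injury in endothelial cells, where without the filter on low counts 2 genes passed in place of 0 (1.37% of all genes): Gadd45b (log2 fold change -2.36, edgeR adjusted p = 0.0308) and Nr4a2 (-2.34, edgeR adjusted p = 0.0296). DESeq2 called 28 genes in intermediate against basal cells (42.2% of all genes), 28 in superficial against intermediate (46.7%), 32 in mesenchymal against urothelial (69.8%), 15 in myofibroblasts against fibroblasts (15.9%), 14 in endothelial (29.9%) and 21 in macrophages (39.1%) against mesenchymal cells.

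Leaving out 1 library at a time gave 27 to 31 and 27 to 30 called genes at the layer steps, 26 to 30 in mesenchymal against urothelial cells, 17 to 23 in macrophages, 6 to 23 in endothelial against mesenchymal cells, 8 to 14 in myofibroblasts against fibroblasts and 0 to 2 in chronic endothelial cells, and 0 in the other injury comparisons that could be run. Of all genes, 25.2% to 34.3% were called over these fits in endothelial against mesenchymal cells and 12.8% to 19.9% in myofibroblasts against fibroblasts. The shares for the other class pairs are not given, so those counts are not read as a result about the list. The acute minus healthy mean ran from -1.04 to 0.73 in fibroblasts, -0.996 to 0.496 in mesenchymal cells, -1.05 to 0.30 in myofibroblasts, -0.43 to -0.21 in urothelial, -0.32 to 0.042 in intermediate and -0.63 to -0.036 in superficial cells, and the chronic one from -0.53 to 0.051 in superficial cells. Leaving out healthy replicate 1 could not be run in endothelial cells, since no healthy library was left. The cause of these moves was not tested.

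Same-numbered libraries did not deviate together in every pair of groups (healthy with acute, healthy with chronic and acute with chronic: correlations of 0.39, -0.50 and -0.29 over 6020 genes in urothelial cells, and 0.045, -0.23 and -0.072 over 6321 genes in mesenchymal cells). With the replicate number as a block, 0 of the genes passed in each of the 18 injury comparisons. The shares of all genes that passed with this block are not given, so its counts are not read as a result about the list. With 2 libraries a group, the spread between libraries sets what could be detected in the injury comparisons.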

Other observations

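Cells outside the comparisons also carried these genes. Mural cells, which wrap small vessels, had a mean of log2(CPM + 1) over the 37 genes of 8.61 ± 0.18 (SD, n = 2 libraries), and NK and T cells 7.78 ± 0.11 (n = 3). Cycling basal cells stood at 7.76 ± 0.079 (n = 6) and cycling superficial cells at 6.58 ± 0.11 (n = 4, the injured libraries alone). Outside the cycle basal cells stood at 8.02 (n = 6) and superficial cells, over the same 4 injured libraries, at 6.77 ± 0.18.

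Within the urothelium the sub-clusters formed a range rather than 3 levels. The means of sub-clusters were taken without TMM scaling and are not on the scale of the class means above. Endothelial cells gave 8.61 in this way and 8.39 with the scaling. The 2 basal sub-clusters had means of 8.13 and 8.00, the intermediate sub-clusters ran from 7.68 down to 6.67, and the 2 superficial ones had 6.94 and 6.58. The lowest intermediate sub-cluster, 1669 cells led by the uroplakin genes Upk3a and Upk2, lay between the superficial ones at 6.67 ± 0.30 (n = 6). In the stroma the sub-clusters of fibroblasts ran from 7.74 ± 1.24 (n = 4) to 8.54 ± 0.56 (n = 5). Those of myofibroblasts ran from 8.41 ± 0.52 (n = 6) to 8.85 ± 0.30 (n = 5). The libraries behind these means differ. A sub-cluster of 762 mesenchymal cells that also carried urothelial markers was left unnamed and had 8.81 ± 0.34 (n = 6).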
